A study of Mus musculus with 6 samples.

Results

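Interferon and innate immune response genes were examined in whole brains of mouse embryos that carried a Foxf2 mutation. The set was a list of 40 genes, and its members on the array were all probe sets annotated to exactly 1 gene of that list. This gave 70 probe sets for 39 of the 40 genes, out of 45037 probe sets that were not controls. Nfkb1 had no singly annotated probe set. Total RNA was taken at E18.5, shortly before birth, from 3 Foxf2 mutant and 3 wild-type brains, all on the C57/bl6 background, and each sample was hybridised to 1 Affymetrix array. Foxf2 is a forkhead-family regulator of transcription with a known role in pericytes, the cells that line brain capillaries from outside. The labels describe neither the mutation nor its zygosity, and they do not say whether an array held 1 embryo or several or whether embryos shared a litter. The p-values below therefore measure the spread between these 6 samples, which may be partly technical. Replicate numbers name the arrays.

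Type I interferons bind the receptor chains Ifnar1 and Ifnar2, and interferon gamma binds Ifngr1 and Ifngr2. Both receptors signal through JAK kinases to STAT proteins, which with Irf9 and other interferon regulatory factors switch on antiviral genes of the Ifit, Oas, Ifitm and Mx families. Cytoplasmic RNA sensors feed into the same factors and into NF-kappaB, whose targets include cytokines, chemokines and adhesion molecules, and in the brain microglia, border macrophages and vascular cells are known responders.

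Median intensity ranged over 24.3 to 25.5 on mutant arrays, against 23.1 to 23.6 on wild-type arrays, and 41.5% to 42.5% of probe sets on mutant arrays and 43.5% to 44.0% on wild-type arrays read below 16. Foxf2 itself read 8.06, 3.31 and 7.57 in mutant brains, against 18.6, 24.4 and 13.8 in wild-type brains, on a probe set too dim to be tested. The groups did not overlap, and the two-sided exact permutation p was 0.1, which is as low as 3 against 3 arrays can go. The other, dimmer Foxf2 probe set read 0.421, 0.309 and 2.77 in mutant brains and 0.834, 0.686 and 4.55 in wild-type brains. There the groups overlapped (two-sided exact permutation p = 0.5). The sources used here do not place the Foxf2 probes relative to the mutation. Some arrays stood apart. The Y-linked gene Eif2s3y read 260 on mutant array 2 and at most 2.12 on the other arrays, and Xist read 13 there. Skeletal muscle markers summed to 1207 on mutant array 3, against 70.5 to 89.9 on the other arrays, and pituitary markers to 1907 on wild-type array 3, against 38.3 to 266. For genes whose 6 readings are listed, the value with an array left out is given where it turned the sign of a difference, or moved one of over 0.1 on the log2 scale by more than 1.5 times. Where a tested probe set then fell below the floor, which is defined in the next paragraph, this is said instead.

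A probe set was tested where its mean log2 level over all 6 arrays reached the 40th percentile of the table, an intensity of 13.2, called the floor here. Of the 70 member probe sets 50 lay above the floor, or 71.4%, against 60% of all probe sets, and they covered 30 of the 39 genes. The nearest genes inside it were Irf7 at 13.3, Usp18 at 13.4 and Icam1 at 16.1, and the nearest probe sets outside it were those of Rsad2 at 12.6, Psmb9 at 11.7 and Tap1 at 11.6 (mean log2 levels expressed as intensity). The genes found only below the floor were Ifit1, Mx1, Cxcl10, Ccl2, Il1b, Tnf, Tap1, Psmb8 and Psmb9, 9 in all. The 20 member probe sets below the floor never read above 20.2 on any array. In these bulk samples fewer cells of a type and less RNA per cell cannot be told apart.

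**Figure D1:**
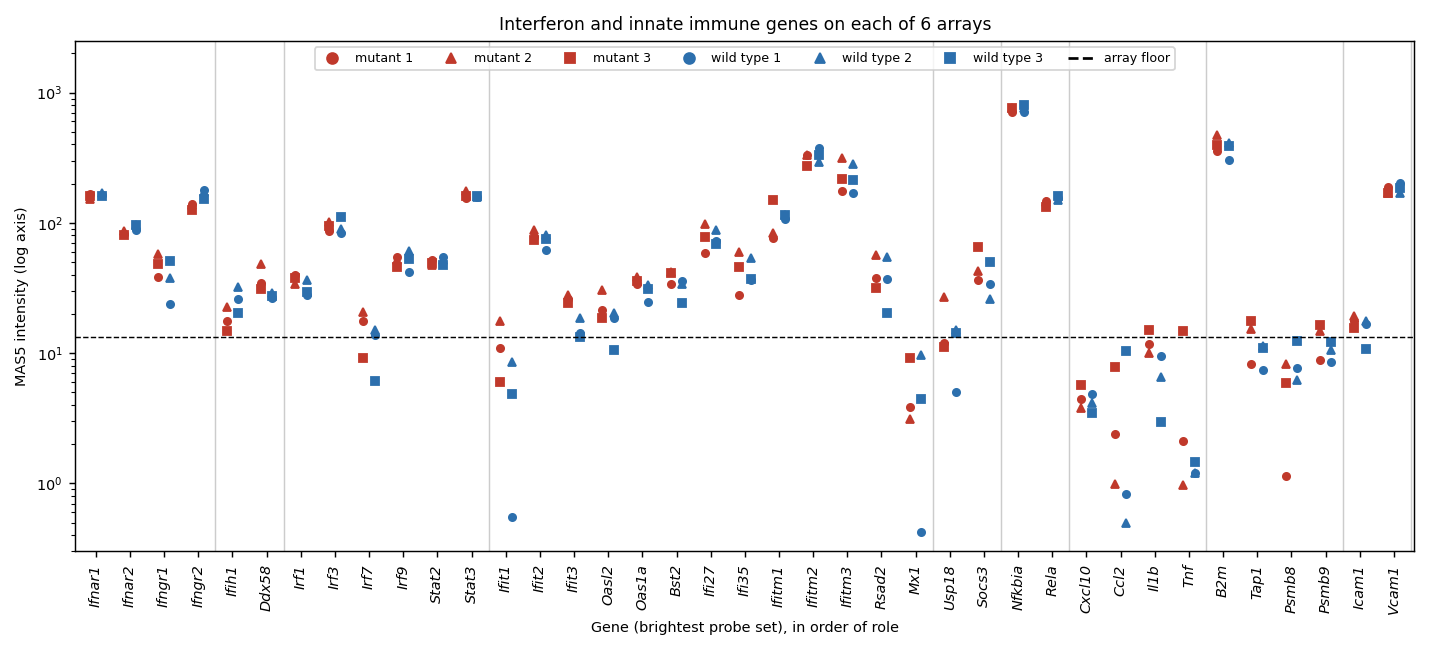
Intensity of the 39 genes with a probe set (log axis), each on its probe set with the highest mean, with mutant arrays in red to the left of wild-type arrays in blue and a marker shape for each replicate number. Vertical lines separate the roles and the dashed line is the floor at 13.2; the 4 cytokine and chemokine genes lie below it in mean level, and for most genes the colours overlap.

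No member passed the test. Differences are mutant minus wild type in log2(intensity + 16), which understates changes of dim genes, and were tested with limma at an adjusted p of 0.05 over all 27022 probe sets above the floor. Of the 50 member probe sets 0 passed, with a lowest adjusted p of 0.213, where 0.389% of all tested probe sets passed. At an unadjusted p under 0.05 there were 3 higher member probe sets, those of Ifit3, B2m and Ifngr2, or 6% against 7.76% of all tested probe sets. There was 1 lower, another probe set of Ifngr2, or 2% against 5.79%. The groups did not overlap, with mutant arrays above wild-type arrays, for 4 probe sets (Ddx58, Ifit3, Oas1a and Ifi35), or 8% against 10.9%. They did not overlap in the opposite direction for 3 (Ifnar2, Ifngr2 and Rela), or 6% against 9.38%. Each of these shares was below that of all tested probe sets.

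The members did not share one direction. Of the 50 member probe sets 28 read higher and 22 lower in mutant brains, so 56% read higher, against 48.6% of all tested probe sets. Their median difference was 0.03 on the log2 scale, with quartiles of -0.08 and 0.19 and a range of -0.30 to 0.43, and the median of all tested probe sets was -0.01. With 1 probe set per gene, the one with the highest mean, 19 of 30 genes read higher, or 63.3% against 48.3% of all tested genes, with a median of 0.05. Leaving out mutant array 2 gave the members a median of -0.02, and leaving out wild-type array 2 gave 0.09. Several tested probe sets existed for 12 genes, and in 7 of these, Ifnar2, Ifngr2, Irf3, Nfkbia, Socs3, Stat3 and Vcam1, they differed in sign.

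**Figure D2:**
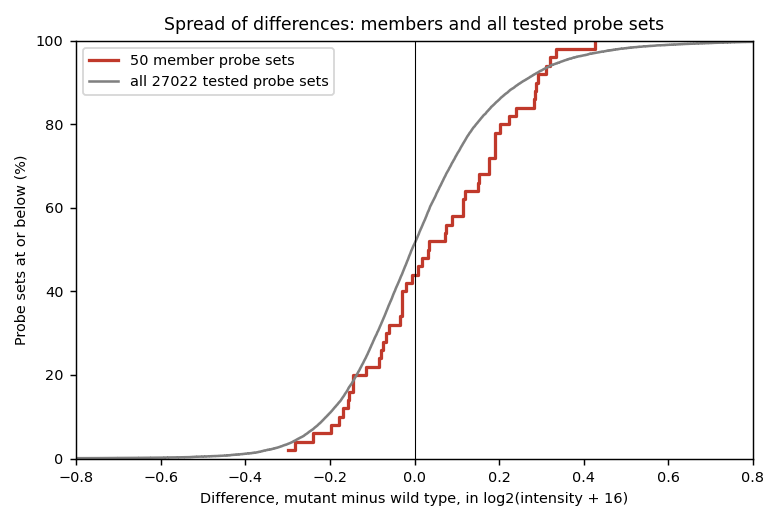
Cumulative share of probe sets (%) at or below each difference, mutant minus wild type in log2(intensity + 16), for the 50 member probe sets (red) and all 27022 tested probe sets (grey). The member curve lies to the right of the grey curve over its middle, with medians of 0.03 and -0.01, and its range ends at 0.43.

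Among the receptors, the interferon gamma receptor gave the largest differences, and its chains and probe sets disagreed. Ifngr2, the signalling chain, read 140, 137 and 126 in mutant brains, against 177, 173 and 151 in wild-type brains, on its probe set with the higher mean. All mutant arrays lay below all wild-type arrays, with means of 134 ± 7.41 and 167 ± 13.9 (SD, n = 3 each) and a log2 difference of -0.28 ± 0.09 (SE; limma adjusted p = 0.226). The other Ifngr2 probe set read 62.6, 51.3 and 66.7 in mutant brains and 44.6, 36.8 and 52.1 in wild-type brains. Here the mutant mean was the higher one, the groups overlapped, and the difference was 0.34 ± 0.14 (SE; limma adjusted p = 0.332). No direction for Ifngr2 can be read from a gene whose probe sets differ in sign. Ifngr1, the ligand-binding chain, read 38.7, 57.2 and 48.6 in mutant brains and 23.7, 37.9 and 50.9 in wild-type brains, which overlapped, for a difference of 0.28 (limma adjusted p = 0.572). That difference was 0.18 with mutant array 2 left out, 0.09 with wild-type array 1 and 0.46 with wild-type array 3 left out. Ifnar1 read 168, 152 and 160 in mutant brains and 162, 170 and 160 in wild-type brains. Its groups overlapped, and the difference of -0.03, whose sign turned without mutant array 2 (8.07e-06), had a 95% interval of -0.21 to 0.14. Ifnar2, the other type I chain, differed by -0.15 (limma adjusted p = 0.525) on its probe set with the highest mean, where the groups did not overlap, and by -0.03 and 0.09 on the others. The second probe set of Ifnar1 differed by -0.02.

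The RNA sensors read in opposite directions. Ddx58, which encodes the sensor RIG-I, read 34.6, 48.4 and 31.1 in mutant brains, against 26.6, 29.1 and 27.5 in wild-type brains. The groups did not overlap, and mutant array 2 was the highest of all 6. The difference was 0.29 with a 95% interval of -0.04 to 0.63 (limma adjusted p = 0.428), and it was 0.16 without mutant array 2. Ifih1, which encodes the sensor MDA5, read 17.5, 22.4 and 14.8 in mutant brains and 26.0, 32.3 and 20.3 in wild-type brains. The groups overlapped and the difference was -0.30 with a 95% interval of -0.65 to 0.05 (limma adjusted p = 0.443), and it was -0.20 without wild-type array 2. The 2 dimmer Ddx58 probe sets lay below the floor.

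The STAT and interferon regulatory factors, which carry the signal to the promoters, differed by -0.03 to 0.20. Of 6 genes 4 read higher and 2 lower, with a median of 0.02, and of their 11 tested probe sets 5 read higher and 6 lower. Irf7, which amplifies type I interferon production, read 17.6, 20.8 and 9.17 in mutant brains and 13.8, 14.9 and 6.15 in wild-type brains. The groups overlapped close to the floor, with a difference of 0.20 (limma adjusted p = 0.684) that was 0.36 without mutant array 3 and 0.05 without wild-type array 3. With any other array left out, its probe set fell below the floor and was not tested. Irf1, a factor induced by interferon gamma, read 40.1, 34.0 and 37.8 in mutant brains and 27.7, 36.6 and 29.6 in wild-type brains. These overlapped too, with a difference of 0.18 (limma adjusted p = 0.594). Stat3, a factor downstream of many cytokines, read 155, 177 and 160 in mutant brains and 159, 157 and 162 in wild-type brains. Its difference of 0.03 had a 95% interval of -0.15 to 0.22 and was -0.02 without mutant array 2. Irf3, the factor activated by the RNA sensors, differed by 0.01 on a probe set whose name ends in _x_at, which can bind related transcripts. Its other tested probe sets differed by -0.20 and -0.06, so no direction can be read for it. Stat2 and Irf9, partners in the complex that type I interferon activates, differed by -0.03 and -0.01. The other probe sets above the floor in this role differed by -0.24 (Stat2) to 0.12 (Stat3).

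The interferon-induced effectors showed the most one-sided readings of the larger roles, though none passed the test. Of 13 genes 11 lay above the floor, and 9 of these read higher and 2 lower in mutant brains, with a median of 0.12. Leaving out mutant array 2 gave 5 of 11 and a median of -0.02, and leaving out wild-type array 2 gave 9 of 11 and 0.25. The median was 0.22 with mutant array 1 left out, 0.03 with wild-type array 1 left out, and 0.06, with 6 of 11 higher, with wild-type array 3 left out. Ifit3, which encodes an antiviral protein of the Ifit complex, read 25.9, 28.1 and 24.0 in mutant brains, against 14.2, 18.6 and 13.2 in wild-type brains. Every mutant array lay above every wild-type array, with means of 26.0 ± 2.05 and 15.3 ± 2.85 (SD, n = 3 each), a ratio of 1.70. On the log2(intensity + 16) scale the difference was 0.43 ± 0.13 (SE), with a 95% interval of 0.13 to 0.72 (unadjusted p = 0.00993, limma adjusted p = 0.213). Oasl2, a relative of the oligoadenylate synthetases, read 21.4, 30.3 and 18.7 in mutant brains and 18.46, 20.2 and 10.6 in wild-type brains. Its groups overlapped, with a difference of 0.29 (limma adjusted p = 0.508) that was 0.16 without mutant array 2 and 0.15 without wild-type array 3. Ifitm2, one of the membrane proteins that hinder virus entry, read 332, 332 and 273 in mutant brains and 373, 291 and 332 in wild-type brains. Here the groups overlapped as well, and the difference of -0.08 had a 95% interval of -0.33 to 0.16. It lay just above 0 when wild-type array 1 (0.000854) or mutant array 3 (0.00603) was left out.

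The remaining effectors above the floor differed by -0.16 to 0.22. Bst2, also called tetherin, which holds budding virus at the cell surface, differed by 0.22 and Oas1a, an oligoadenylate synthetase, by 0.19 (limma adjusted p = 0.538 and 0.559), and these were 0.11 for Bst2 without wild-type array 3 and 0.11 for Oas1a without wild-type array 1. Rsad2, which encodes viperin, differed by 0.15, Ifit2 by 0.12, Ifitm3 by 0.07, Ifi35 by 0.03, Ifi27 by 0.02 and Ifitm1 by -0.16. Of the effectors below the floor, Ifit1 read 10.9, 17.5 and 5.96 in mutant brains and 0.552, 8.60 and 4.88 in wild-type brains, and Mx1 read at most 9.65 on any array. Ifi35 gave contrary readings: 1 probe set below the floor read 7.76, 8.68 and 5.56 in mutant brains, against 14.5, 16.4 and 18.0 in wild-type brains, while another, above the floor, read higher in every mutant array. Probe sets whose name ends in _x_at can bind related transcripts, and they made up 5 of the 50 member probe sets, or 10% against 6.02% of all tested probe sets.

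**Figure D3:**
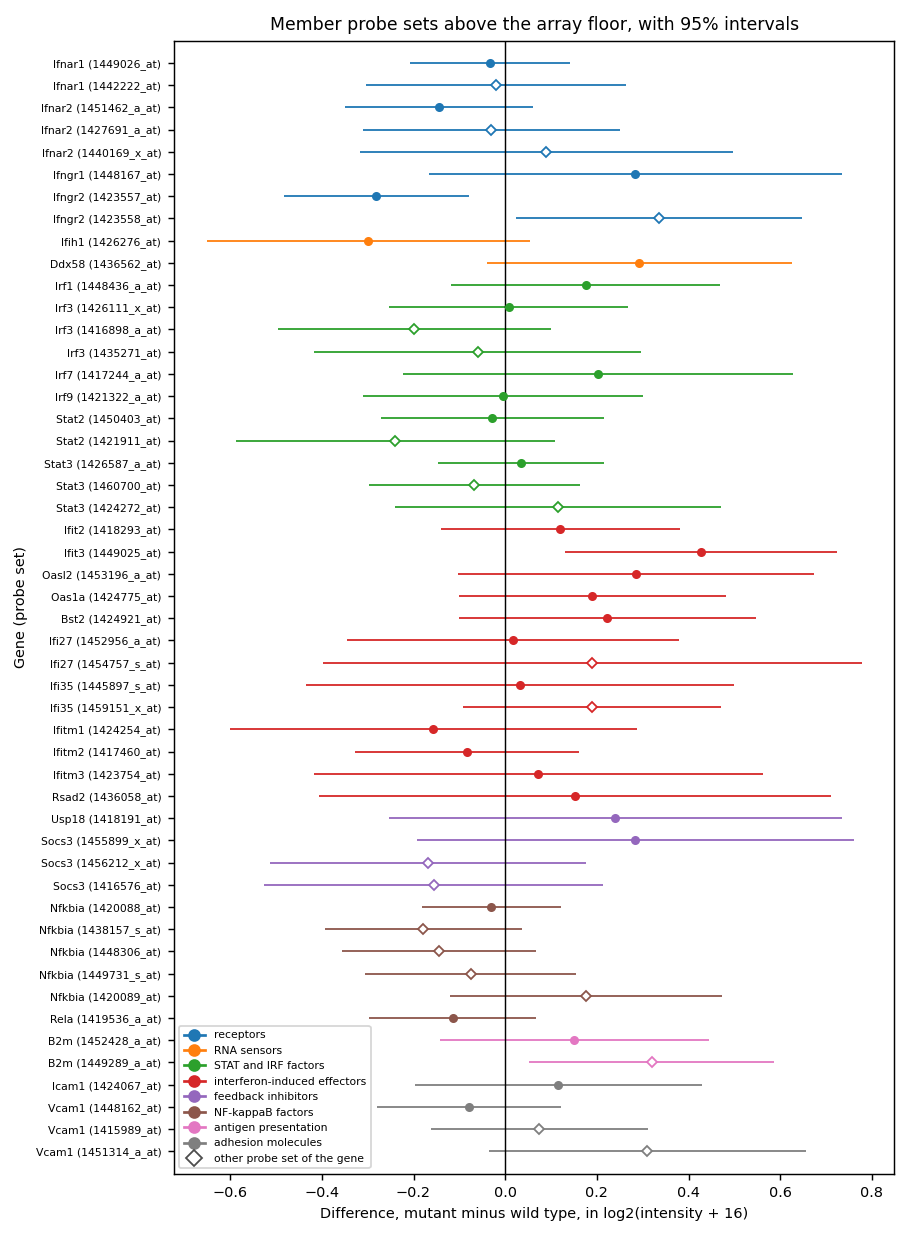
Difference, mutant minus wild type in log2(intensity + 16), of the 50 member probe sets above the floor, with 95% intervals, coloured by role; filled circles are the probe set with the highest mean of each gene and open diamonds its other probe sets. The intervals of 46 probe sets include 0, and Ifit3 lies farthest to the right at 0.43.

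The promoters of 4 members that carry letters known from interferon signalling are printed beside the readings of these genes. No rule was set for their choice, and all 4 read higher in mutant brains on their probe set with the highest mean. Ifih1, Ifitm2, Stat2 and Nfkbia, which are not printed, carry the same core and read lower. A window ran from 250 bases before to 50 after the gene start in RefSeq (build GRCm38.p6), and 34 of the 40 genes had one, 37 windows in all. The core GAAANNGAA, recognised by interferon regulatory factors and part of the interferon-stimulated response element, was searched on both strands. It stood in 13 of the 37 member windows, or 35.1%, against 8.56% of all 32851 windows. The 170 bases before each start are shown 5′ to 3′ in the direction of the gene, with matches on either strand in capitals.
Ifit3, chr19:34583359-34583528, plus strand: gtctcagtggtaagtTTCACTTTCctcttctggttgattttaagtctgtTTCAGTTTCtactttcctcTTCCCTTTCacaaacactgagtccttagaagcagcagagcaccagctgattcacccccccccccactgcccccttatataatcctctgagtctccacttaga
Bst2, chr8:71537473-71537642, minus strand: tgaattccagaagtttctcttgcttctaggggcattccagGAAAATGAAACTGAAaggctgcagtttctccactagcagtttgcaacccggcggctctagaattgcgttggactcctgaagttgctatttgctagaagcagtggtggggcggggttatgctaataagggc
Oas1a, chr5:120907526-120907695, minus strand: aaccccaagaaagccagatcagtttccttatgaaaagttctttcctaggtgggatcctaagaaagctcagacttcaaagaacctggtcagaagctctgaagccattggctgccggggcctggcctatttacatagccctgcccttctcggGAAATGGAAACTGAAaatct
B2m, chr2:122147517-122147686, plus strand: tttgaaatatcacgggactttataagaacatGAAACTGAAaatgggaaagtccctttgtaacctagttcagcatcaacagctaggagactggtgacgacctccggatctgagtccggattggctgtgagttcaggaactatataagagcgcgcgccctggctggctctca
Ifit3 has 3 separate matches on the opposite strand, Bst2 and Oas1a have 2 overlapping matches each, and B2m has 1. TTCNNNGAA, the letters of the gamma-activated site bound by STAT dimers, stood in 29.7% of member windows against 8.30% of all windows, and overlapped the core in Bst2 and Ifitm3. GGNNTTTCC, letters of the NF-kappaB site, stood in 21.6% against 5.82%. Of the genes above the floor with a window, the 11 with the core read higher in 7 and lower in 4 (median 0.15), and the 16 without it read higher in 10 and lower in 6 (median 0.03). For the gamma-activated letters it was 8 higher and 2 lower with them (median 0.12), and 9 higher and 8 lower without (median 0.01). For the NF-kappaB letters it was 5 higher and 2 lower with them (median 0.12), and 12 higher and 8 lower without (median 0.05). A match is a description of the letters and no evidence of binding.

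Within both groups most effectors were highest on array 2. Ifitm3 read 174, 316 and 217 in mutant brains and 169, 284 and 212 in wild-type brains. Rsad2 read 38, 56.8 and 31.7 in mutant brains and 37.0, 54.7 and 20.5 in wild-type brains (both genes chosen after their values were seen). Leaving out mutant array 2 turned the difference to -0.15 for Ifitm3 and to -0.02 for Rsad2, as did leaving out wild-type array 1 for Ifitm3 (-0.09) and wild-type array 3 for Rsad2 (-0.10). The Rsad2 difference was 0.28 with mutant array 3 left out and 0.38 with wild-type array 2 left out. In both genes array 2 was the highest of its group, and the gap between arrays of 1 group exceeded the gap between group means. Of the 11 effectors 8 were highest on array 2 in both groups, or 72.7%, against 14.3% of all 12573 tested genes: Ifit2, Ifit3, Oasl2, Oas1a, Ifi27, Ifi35, Ifitm3 and Rsad2. Among the other members it was 7 of 19, or 36.8%. The mean log2 level of the effectors was 6.22, 6.55 and 6.36 on the mutant arrays and 6.21, 6.42 and 6.15 on the wild-type arrays. The groups overlapped, and the mutant mean exceeded the wild-type mean by 0.12. The pattern was noticed in these data and was not tested, and the labels do not say that arrays of the same number share a litter or a day. Mutant array 2 was also the array on which Eif2s3y read 260 and Xist 13, while on wild-type array 2 they read 0.133 and 2186. A link to the effector readings was not tested.

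**Figure D4:**
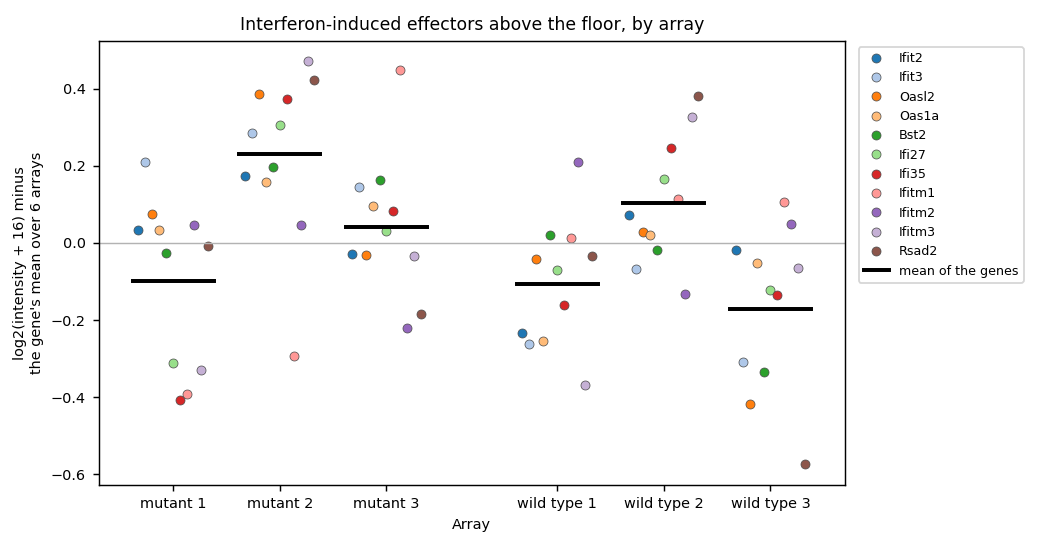
Level of the 11 effectors above the floor on each array, as log2(intensity + 16) minus the gene's own mean over the 6 arrays, mutant arrays left of wild-type arrays; points are genes and black bars the mean over genes. The bar of array 2 is the highest in each group, at mean levels of 6.55 in mutant and 6.42 in wild-type brains before the gene means were subtracted.

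The feedback inhibitors, 2 genes, read higher in mutant brains on their probe sets with the highest mean, within a wide spread. Of their 4 tested probe sets 2 read higher and 2 lower. Usp18, which restrains type I interferon receptor signalling, read 12, 26.8 and 11.2 in mutant brains and 5.01, 15.1 and 14.2 in wild-type brains. The groups overlapped, and the difference was 0.24 (limma adjusted p = 0.677), or 0.06 without wild-type array 1. With mutant array 2, wild-type array 2 or wild-type array 3 left out, its probe set fell below the floor and was not tested. Socs3, an inhibitor of JAK signalling, read 36.7, 42.4 and 65 in mutant brains and 33.7, 25.8 and 50.5 in wild-type brains. Its groups overlapped, with a difference of 0.28 (limma adjusted p = 0.596) that ran from 0.10 without mutant array 3 to 0.46 without wild-type array 3. Its other probe sets differed by -0.17 and -0.16, so no direction can be read for it. The probe set listed here and the one at -0.17 are _x_at probe sets.

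The NF-kappaB members were Rela and Nfkbia. Rela, the p65 subunit, read 148, 144 and 133 in mutant brains, against 155, 149 and 161 in wild-type brains. The groups did not overlap, and the difference was -0.11 with a 95% interval of -0.30 to 0.07 (limma adjusted p = 0.572), or -0.08 without mutant array 3. Nfkbia, which encodes the inhibitor that NF-kappaB itself induces, read 712, 758 and 757 in mutant brains and 708, 767 and 802 in wild-type brains. It differed by -0.03, with a 95% interval of -0.18 to 0.12, and by 0.00926 without wild-type array 3. Its other 4 probe sets differed by -0.18 to 0.18, so no direction can be read for it. Cytokines and chemokines, whose genes NF-kappaB is known to drive, had mean levels below the floor. Cxcl10 read at most 5.72, Ccl2 at most 10.4 and Tnf at most 14.8 on any array. Il1b, the interleukin-1 beta gene, read 11.7, 9.98 and 15.1 in mutant brains and 9.45, 6.56 and 2.98 in wild-type brains, without overlap but below the floor and so untested.

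Antigen presentation was measurable through B2m, the light chain of MHC class I. On its probe set with the higher mean B2m read 358, 475 and 395 in mutant brains and 303, 412 and 388 in wild-type brains, which overlapped, for a difference of 0.15 (limma adjusted p = 0.653). That was 0.04 with mutant array 2 left out, 0.24 with mutant array 1, 0.02 with wild-type array 1 and 0.24 with wild-type array 2 left out. The other probe set read 331, 474 and 424 in mutant brains and 310, 341 and 315 in wild-type brains. Mutant array 1 lay within the wild-type range there, and the difference was 0.32 with a 95% interval of 0.05 to 0.59 (limma adjusted p = 0.288), or 0.21 without mutant array 2. Tap1, part of the peptide transporter, and Psmb8 and Psmb9, subunits of the immunoproteasome, lay below the floor, where their readings did not exceed 17.6.

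The adhesion molecules, which bind leukocytes to vessel walls, gave no shared direction. Icam1 read 17.5, 19.3 and 15.6 in mutant brains and 16.7, 17.5 and 10.8 in wild-type brains, and Vcam1 read 187, 169 and 168 in mutant brains and 202, 169 and 187 in wild-type brains. Both overlapped, with differences of 0.12 for Icam1 and -0.08 for Vcam1 (limma adjusted p = 0.764 and 0.744). Icam1 differed by 0.08 with mutant array 2 left out, 0.17 with wild-type array 2 and 0.01 with wild-type array 3 left out. The other Vcam1 probe sets differed by 0.07 and 0.31.

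Further genes of these pathways were read on 1 probe set per gene. Of 49 other interferon pathway genes 32 lay above the floor, 20 higher and 12 lower with a median of 0.04, and of 38 other innate sensing and NF-kappaB genes 18 did, 12 higher and 6 lower with a median of 0.07. None passed the adjusted threshold. At an unadjusted p under 0.05 there were 7 higher of these 50 genes, or 14%, against 7.56% of all tested genes, and 1 lower, or 2%, against 6.01%. Both lists were chosen with earlier results of these data known, so these shares are a description and were not tested. Tnfrsf1a, the main receptor for tumour necrosis factor, came closest to the threshold. It read 82.8, 73.1 and 87.0 in mutant brains, against 52.6, 40.1 and 47.9 in wild-type brains, without overlap, for a difference of 0.63 ± 0.12 (SE; limma adjusted p = 0.0743). The class I heavy chain gene H2-K1 differed by 0.63, the chemokine gene Cxcl1 by 0.60 and the NF-kappaB subunit gene Nfkb2 by 0.48, all on _x_at probe sets, which can bind related transcripts. The other tested probe set of H2-K1 differed by 0.02 and that of Cxcl1 by -0.14. The interferon-induced GTPase genes Igtp and Iigp1 differed by 0.46 and 0.33, and Cmpk2, an interferon-induced kinase gene, by 0.33, with 0.06 on its other probe set. Il6st, the shared receptor chain of the interleukin-6 family, differed by -0.24, and its other tested probe sets by 0.09, 0.14 and -0.15, so no direction can be read for it. The limma adjusted p of these 7 genes lay between 0.198 and 0.320.

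Markers of cell types that respond to interferon were summed over their probe sets on each array. The 7 border macrophage markers all read higher in mutant brains, and their sums of 591, 518 and 664 on mutant arrays lay above the 463, 512 and 516 of wild-type arrays. Among them Lyz2 differed by 0.41 (limma adjusted p = 0.196). The sums for 12 microglia markers overlapped, at 802 to 889 on mutant and 772 to 924 on wild-type arrays, with 7 markers higher and 3 lower above the floor and Itgam and Trem2 below it. The sums for 8 endothelial markers were 773 to 837 on mutant arrays, against 964 to 986 on wild-type arrays, without overlap. Of these markers 3 read higher and 5 lower, and Cldn5 (-0.43, limma adjusted p = 0.0622) and Kdr (-0.41, limma adjusted p = 0.156) differed most. Mean intensity in mutant and wild-type brains was 278 and 380 for Cldn5, and 112 and 153 for Kdr. Most of the gap between the endothelial sums came from these genes. Blood leukocyte sums overlapped, at 65.6 to 84.6 and 44.0 to 73.0, with the defining markers Cd3e, Cd79a and Ms4a1 below the floor. Other lists shared a direction too. The 6 meningeal fibroblast markers all read higher, with sums of 1020 to 1404 on mutant and 1072 to 1208 on wild-type arrays. The 5 pericyte markers all read lower, with sums of 849 to 941 and 895 to 1243. In both lists the groups overlapped. The part of these cell types in the readings of the interferon genes was not tested. Neuronal markers, a check of the labelled tissue, summed to 11820 to 11859 on mutant arrays and 11077 to 11382 on wild-type arrays, without overlap. Of these 6 markers 4 read higher and 2 lower in mutant brains. Tbr1 (0.36, limma adjusted p = 0.244) and Neurod6 (0.32, limma adjusted p = 0.235) differed most.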

How the data were processed

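Whole brain RNA of 3 Foxf2 mutant and 3 wild-type embryos was measured on Affymetrix arrays. The deposited values are MAS5 intensity values on a linear scale, per the submitters' processing notes, which give no version. Trimmed by 2% at either end, the mean intensity of each array lay near 99.5, so the authors' values were already scaled, and they were not normalized again. Groups and replicate numbers came from the labels. Gene names came from the platform annotation, and probe sets with several genes or none were not named.

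The log2(intensity + 16) values of 45037 probe sets (64 controls left out) were fitted in R 4.3.3 with limma 3.58.1 (lmFit, eBayes with trend), two-sided, with Benjamini-Hochberg adjustment over the 27022 at or above the 40th percentile of mean level. The number of arrays limits the precision. The fit was tested on simulated data. Each gene was read on whichever of its singly named probe sets had the highest mean.

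Members, pathway lists and marker lists were chosen with earlier results of these data known. All 6 values were given for Foxf2, for members at an unadjusted p under 0.05 and, in each role, for the gene with the highest mean and, where no gene of the role reached that p, the 2 with the largest difference. Pathway genes at an unadjusted p under 0.05 were named. Values of Ifngr1, Oasl2, Ifitm3, Rsad2, second probe sets and dim probe sets were added after they were seen. Alternatives covered the offset (1 and 64), the floor (none and the 60th percentile), array weights, median centring, 1 probe set per gene, quantile normalization, the replicate block, eBayes without trend and leaving out each array.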

Additional observations from a re-analysis of the deposited data

How the results depend on the processing

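Member probe sets past the adjusted threshold numbered 0 under all 16 alternatives, of which 5 passed no probe set at all and so say nothing about the members (without the trend, and without wild-type array 1, wild-type array 2, mutant array 2 or mutant array 3). At an unadjusted p under 0.05 the 3 higher became 1 with 1 probe set per gene (1 to 3 leaving out each array, 1 without wild-type array 1), and the 1 lower became 2 without a floor, 2 with quantile normalization, 3 with median centring and 2 with the replicate block (1 to 2 leaving out each array). The members' median of 0.03 became -0.0244 with a floor at the 60th percentile and -0.0206 with median centring, where the median of all tested probe sets was -0.03 and -0.06 (-0.01 before), and ran from -0.0192 to 0.0887 leaving out each array, lowest without mutant array 2 and highest without wild-type array 2. Above the floor were 26 probe sets at the 60th percentile and 30 with 1 per gene. Those reading higher numbered 43 of 70 without a floor and 11 of 26 at the 60th percentile, which test other probe sets, and 19 to 30 leaving out each array. Effectors reading higher numbered 3 at the 60th percentile, where only the brighter effectors were tested, with a median of 0.02. They numbered 7 with median centring, with a median of 0.07. Leaving out each array gave 5 to 10. The effector median then ran from -0.0208 to 0.25, lowest without mutant array 2 and highest without wild-type array 2. Of the named probe sets, 6 of 33 changed sign: Ifnar1 (-0.0652 to 8.07e-06 leaving out each array, highest without mutant array 2), Stat3 (-0.0195 with median centring, which lowered all probe sets alike, -0.0176 to 0.0712 leaving out each array, lowest without mutant array 2), Ifitm2 (-0.17 to 0.00603, above 0 at 0.000854 without wild-type array 1 and at 0.00603 without mutant array 3), Nfkbia (-0.0785 to 0.00926, highest without wild-type array 3), Ifitm3 (-0.146 to 0.255, below 0 also at -0.0942 without wild-type array 1) and Rsad2 (-0.0968 to 0.381, below 0 also at -0.0208 without mutant array 2). Otherwise the cause was not tested. Ifit3 differed by 0.18 to 0.74, with limma adjusted p of 0.177 to 0.507, and Tnfrsf1a by 0.39 to 0.78, with 0.0507 to 0.260.

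Over all probe sets the 105 calls became 181 with offset 1, 64 with offset 64, 52 without a floor, 167 at the 60th percentile, 56 with median centring, 0 without the trend, 220 with the replicate block and 12 with 1 probe set per gene, and 0 to 34 leaving out each array. Deviations of arrays with the same replicate number correlated at 0.186, 0.134 and 0.0917, each higher than with any other number, a hint from the data and not the design, and the block changed no member's call. The array order of the effectors, checked with median centring after seeing the data, was again array 2 in both groups for 8 of 11. Dim probe sets were limited by signal over background.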
